A study of Mus musculus with 40 samples.

Results

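Plau, Plat, Plaur and Serpine2 are the 4 genes described here, out of 51789 Ensembl genes in the count table. They were taken by symbol, and all 4 were found. Plau encodes urokinase (uPA) and Plat encodes tissue plasminogen activator (tPA), the 2 serine proteases that cut plasminogen into plasmin. Plaur encodes the urokinase receptor (uPAR), which holds urokinase on the cell surface. Serpine2 encodes protease nexin-1, a secreted serpin that traps thrombin, urokinase and tissue plasminogen activator. Serpins are inhibitors that act as a bait for a protease and stay bound to it once cut. Plasmin breaks down fibrin and other matrix proteins, and the system is known for its part in cell migration and in the invasion of melanoma and other tumors.

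The data are QuantSeq 3′ mRNA sequencing of cultured mouse melanoma cells, with 40 libraries in 20 groups of 2. B16-F10 cells were a control clone (B16-Ctrl) or a Bmal1 knockout clone (B16-KO), 1 clone each. Bmal1, whose gene symbol is Arntl, is the basic helix-loop-helix activator of the circadian clock. YUMM2.1 (Braf V600E, Cdkn2a+/- and Bcat STA/+, among other alleles) and YUMM1.7 (Braf V600E and Cdkn2a-/-, among other alleles) are lines from transgenic mouse melanomas. Each was given an empty vector (EV), WT-Bmal1 (WT) or dHLH-Bmal1 (dHLH), a mutant without the DNA-binding domain. For YUMM2.1 this was done by lentivirus with sorting for GFP. How it was done for YUMM1.7 is not given in the sources used here. YUMM2.1KO groups carry the same vectors in aC3, a single Bmal1-null CRISPR clone of YUMM2.1. By the study's methods both the YUMM2.1 cells and the clone carried a Bmal1 luciferase reporter before the vectors were added. In a further experiment YUMM2.1 cells with EV, WT or dHLH also carried a control hairpin (shNC) or a hairpin against Myh9, the non-muscle myosin heavy chain IIA (shMyh9#2 or shMyh9#4), under puromycin. The study calls the 2 libraries of several groups biological replicates. Whether these were separate cultures is not given in the sources used here, so p-values measure the spread between these libraries.

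Library totals ran from 3643332 to 22970049 counts with a median of 10021164.5. Levels are CPM, counts scaled to a common library size with TMM factors from all 40 libraries, given as mean ± SD of 2 libraries. Fold changes, standard errors (SE) and adjusted p-values are from edgeR's quasi-likelihood test within each experiment, with the Benjamini-Hochberg adjustment over all genes tested and a threshold of 0.05. With 2 libraries against 2, a permutation test of a single gene cannot go below p = 0.333. Arntl counts did not separate B16-KO from B16-Ctrl (log2 fold change -0.07, SE 0.26, adjusted p = 0.92). With WT against EV, Arntl was lower in YUMM2.1KO (log2 fold change -0.83, SE 0.16, adjusted p = 0.0036). It did not pass in YUMM2.1 (0.10), YUMM1.7 (0.68) or YUMM2.1 with shNC (0.27). With dHLH it passed as higher in YUMM2.1 (1.54), YUMM1.7 (1.05) and YUMM2.1 with shNC (0.60), but not in YUMM2.1KO (0.27). Arntl counts thus do not check the WT construct. Myh9 fell under each hairpin by between 0.42 and 2.04 on the log2 scale. Of 6 melanocyte genes, Dct and Mlana had means of 0 CPM in YUMM2.1-EV and YUMM1.7-EV cells, and Sox10 had a mean of 493 CPM in YUMM2.1-EV but 1.32 CPM in YUMM1.7-EV. The labels YUMM2.1-EV replicate 2 and YUMM2.1-WT replicate 1 are in doubt, because the normalized values that accompany the study match these 2 libraries with the names exchanged. By log2 CPM across genes, the library labelled YUMM2.1-EV replicate 1 correlated with the one labelled YUMM2.1-WT replicate 1 at r = 0.985 and with its own partner at r = 0.971, where genes are not independent replicates. Differences that rest on these libraries are given as labelled, and also with the labels exchanged where this changed a call or the size of a difference. Levels of the YUMM2.1-EV and YUMM2.1-WT groups are as labelled.

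On GRCm38, the build of mm10, Plau lies at chr14:20836660-20843385 on the plus strand and Plat at chr8:22757727-22782844 on the plus strand. Plaur lies at chr7:24462484-24475968 on the plus strand and Serpine2 at chr1:79794197-79861180 on the minus strand. None of the 4 overlaps another annotated gene, in the annotation. The RefSeq promoters of Plaur and Serpine2 (GRCm38.p6) are shown because Bmal1 binds DNA at E-boxes, whose letters are CACGTG. The RefSeq table used here has no entry for Plau or Plat. Each run holds the 250 bases before the start site, 5′ to 3′ on the gene's strand, and capitals mark an AP-1 site (TGACTCA, or TGAGTCA on the other strand).
Plaur, chr7:24462233-24462482, plus strand: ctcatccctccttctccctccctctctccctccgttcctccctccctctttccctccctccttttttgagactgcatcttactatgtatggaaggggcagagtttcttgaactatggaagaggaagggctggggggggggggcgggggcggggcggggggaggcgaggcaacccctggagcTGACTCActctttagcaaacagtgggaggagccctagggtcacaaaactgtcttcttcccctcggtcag
Serpine2, chr1:79858666-79858915, minus strand: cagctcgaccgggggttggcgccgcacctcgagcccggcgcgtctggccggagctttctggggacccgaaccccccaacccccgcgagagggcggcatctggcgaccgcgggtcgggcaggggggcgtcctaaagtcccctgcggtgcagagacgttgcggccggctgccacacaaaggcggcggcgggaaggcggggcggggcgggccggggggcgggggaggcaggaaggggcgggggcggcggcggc
The Plaur window held 1 AP-1 site, whose first base lies 69 bases before the start, and no E-box. The Serpine2 window held neither motif. It precedes a RefSeq start site that lies inside the Serpine2 interval given above. Bases upstream of that interval were not searched. Searched on both strands in the same window, 6.02% of 32851 mouse promoters held CACGTG and 4.46% held the AP-1 letters.

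The lines differed most in Serpine2. In the 30 YUMM2.1-derived libraries its level ran from 37.9 to 210.1 CPM with a median of 128.2 CPM, whereas no B16 library passed 0.336 CPM and no YUMM1.7 library passed 1.23 CPM. Serpine2 was thus read from 307 to 2596 counts per library in YUMM2.1-derived cells and from 2 to 14 counts in the others. YUMM1.7-EV cells held 0.267 and 0.562 CPM against 132 and 191 CPM in YUMM2.1-EV cells, a log2 fold change of -8.58 (SE 0.30, adjusted p = 2.01e-18). B16-Ctrl held 0.334 and 0.145 CPM (log2 fold change against YUMM2.1-EV -9.32, SE 0.30, adjusted p = 3.76e-20). These 2 differences were -8.43 and -9.18 with the labels exchanged. B16-Ctrl and YUMM1.7-EV overlapped in Serpine2 and did not differ by the test (log2 fold change -0.75, 95% interval -2.02 to 0.52, adjusted p = 0.37).

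Plau showed another order of the lines. The YUMM1.7 libraries held between 43 and 118 Plau counts each, at 3.83 to 12.1 CPM, and the B16-Ctrl libraries and all 6 libraries of the aC3 clone held no Plau count. For the B16-Ctrl group, a total of 0 counts allows up to 3 counts, which sets its level at least 58.3-fold lower than in YUMM1.7-EV and at least 7.81-fold lower than in YUMM2.1-EV. YUMM2.1-EV libraries held 7 and 5 Plau counts, and YUMM1.7-EV exceeded them with a log2 fold change of 2.88 (SE 0.69, adjusted p = 0.0022). Under exchanged labels YUMM2.1-EV held 7 and 0 Plau counts, the difference from YUMM1.7-EV was 3.79 (SE 0.85, adjusted p = 0.00099), and B16-Ctrl was at least 4.09-fold lower than YUMM2.1-EV. The aC3 clone with EV was at least 4.12-fold lower than YUMM2.1-EV by the same floor, but that difference missed the threshold (adjusted p = 0.061), and with the labels exchanged the bound was 2.16-fold (adjusted p = 0.27). None of the 4 genes passed between these groups, against 2.48% of all genes, and with the labels exchanged Plaur was higher in the clone (log2 fold change 1.07, adjusted p = 0.031). These bounds cover counting error only.

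Plat was lowest in B16 cells. B16-Ctrl held 0.572 and 0.485 CPM, against 8.47 and 11.2 CPM in YUMM1.7-EV (log2 fold change -4.19, SE 0.66, adjusted p = 4.99e-06) and 16.8 and 4.21 CPM in YUMM2.1-EV (log2 fold change -4.30, SE 0.66, adjusted p = 3.67e-06). The 2 YUMM2.1-EV libraries stand far apart in Plat, at 202 and 39 counts, and the lower one is a library whose label is in doubt. With the labels exchanged the B16 difference was -4.56 (SE 0.60) and that between YUMM1.7-EV and YUMM2.1-EV stayed within error at -0.37 (SE 0.47, adjusted p = 0.60).

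Plaur was the most even of the 4 across lines. It was detected in all 40 libraries, with YUMM1.7-EV at 12.5 and 12.5 CPM, YUMM2.1-EV at 4.15 and 6.04 CPM and B16-Ctrl at 3.38 and 3.01 CPM. YUMM1.7-EV exceeded YUMM2.1-EV by 1.30 on the log2 scale (SE 0.31, adjusted p = 0.0013) and B16-Ctrl was below YUMM1.7-EV by a log2 fold change of -1.97 (SE 0.30, adjusted p = 3.88e-06). B16-Ctrl and YUMM2.1-EV were not separated (log2 fold change -0.66, adjusted p = 0.087). Under exchanged labels YUMM1.7-EV exceeded YUMM2.1-EV in Plaur by 1.86 (SE 0.28, adjusted p = 5.02e-06), and B16-Ctrl differed from YUMM2.1-EV by -0.11 (SE 0.29, adjusted p = 0.79). In all, 3 of the 4 genes passed between YUMM1.7-EV and YUMM2.1-EV, where 31.8% of all genes tested did, and 3 of 4 between B16-Ctrl and YUMM2.1-EV, where 46.9% did. Between B16-Ctrl and YUMM1.7-EV the count was 3 of 4 against 47.6%. In bulk RNA, fewer cells that make a transcript and less transcript per cell cannot be told apart.

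**Figure D1:**
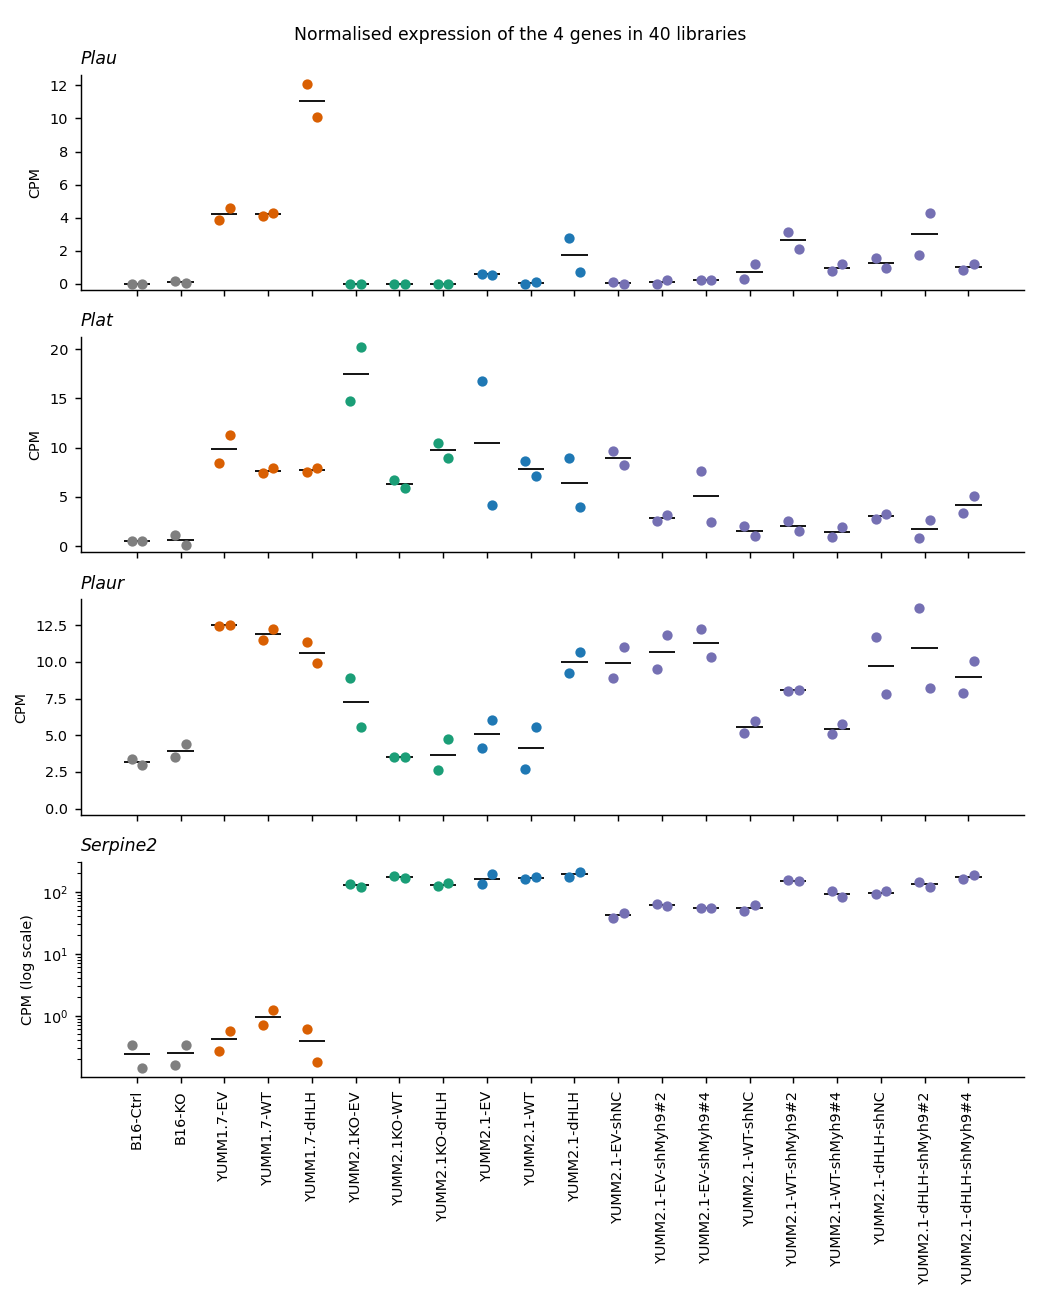
Level of each gene (y axis, CPM; log scale for Serpine2 only) in the 20 groups (x axis), with 1 point per library and a bar at the group mean. Serpine2 lies between 37.9 and 210.1 CPM in YUMM2.1-derived libraries and at or below 1.23 CPM in the others, while Plau is highest in YUMM1.7-dHLH at 10.1 and 12.1 CPM.

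Ranked by group mean over the 20 groups, Plau was highest in YUMM1.7-dHLH (11.1 ± 1.40 CPM), which did not overlap the next group, and the YUMM1.7-EV and YUMM1.7-WT groups that followed overlapped each other. Plat was highest in YUMM2.1KO-EV (17.5 ± 3.86 CPM) and lowest in B16-Ctrl (0.528 ± 0.0616 CPM). Most neighbours in the Plat order overlapped. Plaur ran from 12.5 ± 0.0480 CPM in YUMM1.7-EV to 3.20 ± 0.267 CPM in B16-Ctrl. Serpine2 was highest in YUMM2.1-dHLH (191 ± 26.7 CPM), whose libraries overlapped those of the group below it. Serpine2 in YUMM2.1-EV cells was 161 ± 41.2 CPM and in YUMM2.1-EV-shNC cells 41.6 ± 5.26 CPM, values of 2 separate experiments that were not tested against each other.

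The B16 comparison asked what loss of Bmal1 does in B16-F10 cells. None of the 4 genes passed, where 0.440% of all genes tested did. Plaur stood at 3.51 and 4.41 CPM in B16-KO and at 3.38 and 3.01 CPM in B16-Ctrl (log2 fold change 0.30, 95% interval -0.33 to 0.94, adjusted p = 0.72). Plat held 27 and 2 counts in B16-KO against 12 and 10 in B16-Ctrl, so that its interval ran from -1.89 to 2.27. Plau (4 and 1 counts in B16-KO, none in B16-Ctrl) and Serpine2 (4 and 7 counts against 7 and 3) were too low to be tested. By edgeR neither of the 2 tested genes had an unadjusted p under 0.05.

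In the Bmal1-null aC3 clone, the activator Plat was lower and the inhibitor Serpine2 higher with WT than with EV. Arntl counts were lower with WT as well, as given above, and the study checked overexpression by immunoblot. Plat fell from 14.8 and 20.2 CPM with EV to 6.71 and 5.85 CPM with WT, a log2 fold change of -1.48 (SE 0.22, adjusted p = 0.00076). Serpine2 rose from 133 and 120 CPM to 178 and 167 CPM (log2 fold change 0.44, SE 0.09, adjusted p = 0.0061). The groups did not overlap for either gene. Plaur stood at 8.94 and 5.56 CPM with EV and at 3.50 and 3.49 CPM with WT, without overlap, but missed the threshold (log2 fold change -1.05, SE 0.34, adjusted p = 0.058). Thus 2 of the 3 tested genes passed, against 11.2% of all genes. Without YUMM2.1KO-EV replicate 2 or YUMM2.1KO-WT replicate 1 the Serpine2 difference was 0.37 (adjusted p = 0.12) or 0.39 (adjusted p = 0.091).

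The mutant without the DNA-binding domain also lowered Plat in the clone. Plat with dHLH was 10.5 and 8.92 CPM, below both EV libraries (log2 fold change -0.86, SE 0.21, adjusted p = 0.018). It was the 1 gene of 3 that passed, against 10.9% of all genes, and without YUMM2.1KO-EV replicate 2 (-0.62, adjusted p = 0.23) or YUMM2.1KO-dHLH replicate 2 (-0.76, adjusted p = 0.056) it no longer passed. Plaur was 2.65 and 4.73 CPM (log2 fold change -0.996, SE 0.34, adjusted p = 0.074). Serpine2 stayed at 124 and 137 CPM (log2 fold change 0.03, 95% interval -0.15 to 0.21, adjusted p = 0.87).

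WT against dHLH in the clone compares Bmal1 with and without its DNA-binding domain. Serpine2 was higher with WT by 0.41 on the log2 scale (SE 0.09, adjusted p = 0.049), 1 of the 3 tested genes to pass, where 0.877% of all genes did. The call was lost on leaving out YUMM2.1KO-WT replicate 1, YUMM2.1KO-WT replicate 2 or YUMM2.1KO-dHLH replicate 1, with adjusted p of 0.46, 0.22 and 0.11. Plat was 6.71 and 5.85 CPM with WT and 10.5 and 8.92 CPM with dHLH, without overlap (log2 fold change -0.62, SE 0.23, adjusted p = 0.27).

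In YUMM2.1 cells with their own Bmal1, both Plaur values with dHLH lay above those with EV, whereas in the clone both lay below. Plaur held 9.28 and 10.7 CPM with dHLH, above 4.15 and 6.04 CPM with EV and above 2.74 and 5.59 CPM with WT. As labelled, neither difference passed (log2 fold change 0.98, SE 0.38, adjusted p = 0.14 against EV; 1.28, SE 0.38, adjusted p = 0.075 against WT), and none of the 3 tested genes did, against 13.2% and 13.0% of all genes. With the 2 doubtful labels exchanged, dHLH exceeded EV in Plaur by 1.53 (SE 0.27, adjusted p = 0.0038) and WT by 0.79 (SE 0.27, adjusted p = 0.075). With the replicate number as a block and the labels as deposited, Plaur passed against both EV (1.00, adjusted p = 0.025) and WT (1.33, adjusted p = 0.0074), where 27.1% and 26% of all genes did. Leaving out both doubtful libraries, an alternative chosen after the data were seen, called Plat but not Plaur between dHLH and EV, with Plat at a log2 fold change of -1.37 (adjusted p = 0.045) and Plaur at 1.25 (adjusted p = 0.073).

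The difference between the 2 backgrounds was tested itself. The effect of dHLH on Plaur in YUMM2.1KO less that in YUMM2.1 was -1.96 on the log2 scale (SE 0.45, adjusted p = 0.0032), and -2.51 (SE 0.41, adjusted p = 4.6e-05) with the labels exchanged. Plau had 0 counts in the clone, so its effects could not be compared. Plaur was the 1 gene among the 4 to pass, where 11.6% of all genes did. It passed without any 1 library of the 4 groups. The same difference between YUMM1.7 and YUMM2.1 was -1.21 (SE 0.42, adjusted p = 0.072) as labelled and -1.77 (SE 0.39, adjusted p = 0.0018) exchanged, and as labelled none of the 4 genes passed there, against 9.42% of all genes. Both differences use the same YUMM2.1 libraries as reference.

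**Figure D2:**
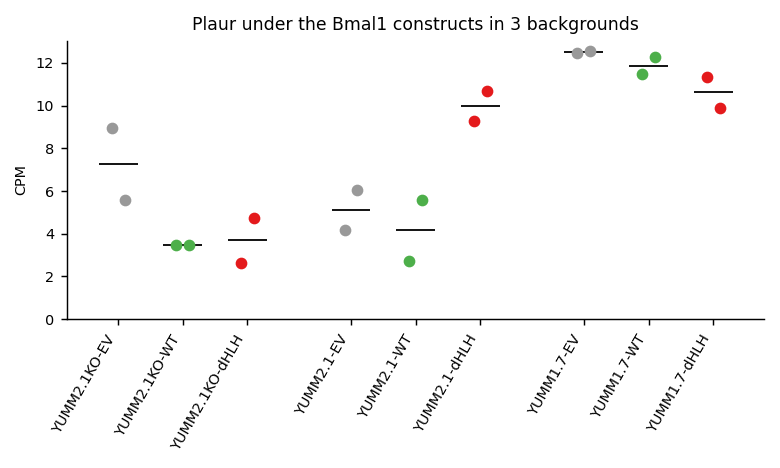
Plaur level (y axis, CPM) with EV, WT and dHLH in YUMM2.1KO, YUMM2.1 and YUMM1.7 cells (x axis), as labelled, with 1 point per library and a bar at the mean of 2. With dHLH the YUMM2.1KO libraries (2.65 and 4.73 CPM) lie below both EV libraries and the YUMM2.1 libraries (9.28 and 10.7 CPM) above both.

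By edgeR within the experiment and as labelled, Plat and Serpine2 gave no call in YUMM2.1 cells, and Plau was not tested. Among the alternatives given at the end, Plau passed between dHLH and WT without the count filter and in 1 fit of all 40 libraries. Between WT and EV no gene of the whole table passed (0% of 14323 genes tested) by edgeR as labelled, 0.705% did with the labels exchanged, and as labelled 0 of the 3 tested members had an unadjusted p under 0.05. Serpine2 ranged from 132 to 210.1 CPM over the 6 libraries. Plat differed little between WT (8.63 and 7.08 CPM) and dHLH (8.99 and 3.92 CPM), and its 95% interval for dHLH against EV ran from -1.94 to 0.55. With the labels exchanged Plat was -1.17 for WT and -0.95 for dHLH against EV (adjusted p = 0.36 and 0.15), and Serpine2 was 0.31 and 0.39 (adjusted p = 0.42 and 0.066). Plau was below the test's filter, with 29 and 6 counts with dHLH, 7 and 5 with EV, and 0 and 1 with WT. Over both libraries dHLH thus held 35 Plau counts against 1 with WT, a ratio of 40.1 (95% counting interval 6.74 to 1627). If the labels are exchanged, WT held 6 counts in all and the ratio was 5.93 (95% counting interval 2.47 to 17.3).

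Some markers of other cell types were also at other levels with dHLH than with EV in YUMM2.1. The summed level of 5 fibroblast genes was 241 to 268 CPM with dHLH and 8.14 to 22.8 CPM with EV, with Col1a1 making up most of it and Thy1 at 0. The summed level of 6 melanocyte genes was 81.4 to 94.1 CPM with dHLH and 498 to 516 CPM with EV. That sum is carried by Sox10, with means of 69.6 CPM and 493 CPM, whereas Mitf had means of 18 CPM with dHLH and 14.3 CPM with EV, Dct and Mlana were at 0 and Tyr and Pmel were near 0. The part of these shifts in the Plaur values was not tested.

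In YUMM1.7 cells dHLH raised Plau. The libraries held 12.1 and 10.1 CPM with dHLH, 3.83 and 4.59 CPM with EV and 4.1 and 4.29 CPM with WT, so that dHLH stood above the 4 others. Against EV the log2 fold change was 1.40 (SE 0.23, adjusted p = 0.0057). It was the 1 of 3 tested genes that passed, where 0.630% of all genes did. Leaving out YUMM1.7-EV replicate 1, YUMM1.7-EV replicate 2 or YUMM1.7-dHLH replicate 1 kept the size (1.27, 1.53 and 1.26) but not the call (adjusted p of 0.13, 0.059 and 0.11). WT against EV gave none of 3, with Plau at 0.01 (95% interval -0.48 to 0.50, adjusted p = 0.99), against 0.138% of all genes (0.0941% lower), and none of the 3 had an unadjusted p under 0.05. Plat stood at 8.47 and 11.2 CPM with EV, 7.40 and 7.88 CPM with WT and 7.56 and 7.90 CPM with dHLH, and Plaur between 9.90 and 12.5 CPM in all 6 libraries.

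**Figure D3:**
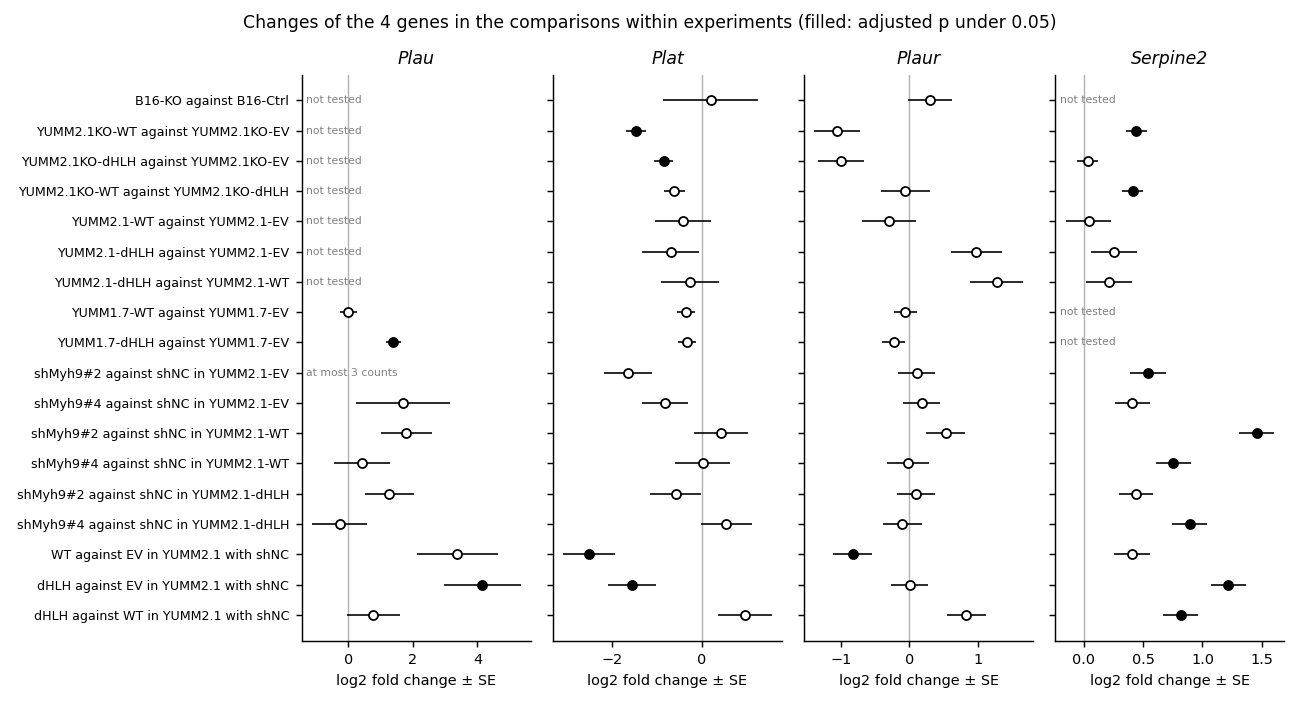
Log2 fold change (x axis) with its SE (bars) for each gene in the 18 comparisons within experiments (y axis), filled where the edgeR adjusted p was under 0.05. All 15 tested Serpine2 values lie above 0 in the order named on the y axis, and filled Plat points lie at -2.52, -1.57, -1.48 and -0.86. That order is WT against dHLH in YUMM2.1KO but dHLH against WT in YUMM2.1 and in YUMM2.1 with shNC, so the signs of these comparisons are not alike in meaning.

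The constructs were tested again in YUMM2.1 cells that carried the control hairpin. WT lowered Plat from 9.62 and 8.19 CPM with EV to 2.04 and 1.07 CPM (log2 fold change -2.52, SE 0.58, adjusted p = 0.0043). WT also lowered the receptor Plaur, from 8.88 and 11 CPM to 5.17 and 5.94 CPM (log2 fold change -0.83, SE 0.29, adjusted p = 0.046). These were 2 of 4 genes, against 22.3% of all genes. The Plaur call was lost without any 1 of the 4 libraries, with adjusted p from 0.074 to 0.23, and Plat missed without YUMM2.1-WT-shNC replicate 2 (-2.12, adjusted p = 0.071). Serpine2 was 48.3 and 61.5 CPM with WT and 37.9 and 45.3 CPM with EV (log2 fold change 0.40, SE 0.15, adjusted p = 0.065). Plau held 2 and 10 counts with WT against 1 and 0 with EV, a ratio of 13.0 (95% counting interval 1.92 to 554) that missed the threshold (adjusted p = 0.063).

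With dHLH, 3 of the 4 genes passed against EV, where 26.4% of all genes did. Serpine2 rose to 91.3 and 102 CPM (log2 fold change 1.22, SE 0.15, adjusted p = 7.99e-06). Plat was lower at 2.78 and 3.24 CPM (log2 fold change -1.57, SE 0.53, adjusted p = 0.038), and Plau was higher at 22 and 6 counts against 1 and 0. The Plau ratio was 23.2 with a 95% counting interval of 3.83 to 948 (adjusted p = 0.015). Plaur was not called (11.7 and 7.79 CPM, 95% interval of the log2 fold change -0.52 to 0.52, adjusted p = 1.0). The Plat call was lost without any 1 of the 4 libraries, with values from -1.69 to -1.45 and adjusted p from 0.093 to 0.20. The Plau call was lost without YUMM2.1-EV-shNC replicate 2 (adjusted p = 0.13) or YUMM2.1-dHLH-shNC replicate 1 (adjusted p = 0.096).

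Between the constructs, dHLH exceeded WT in Serpine2 by 0.82 (SE 0.15, adjusted p = 0.0055), 1 of 4 genes against 1.91% of all genes. That call was lost without YUMM2.1-WT-shNC replicate 1 (0.65, adjusted p = 0.10) or YUMM2.1-dHLH-shNC replicate 2 (0.73, adjusted p = 0.088). In the clone without endogenous Bmal1, as given above, Serpine2 was instead higher with WT than with dHLH, and the difference between the 2 experiments was not tested. The summed level of the 5 fibroblast genes was 8.86 to 9.99 CPM with EV, 57.8 to 58.4 CPM with WT and 193 to 214 CPM with dHLH. Col1a1 made up most of it, at means of 1.99, 48.9 and 190 CPM, while Pdgfra had means of 5.42, 3.73 and 2.64 CPM and Dcn and Thy1 were at or near 0. The part of these shifts in the values of the 4 genes was not tested.

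Serpine2 was higher with the Myh9 hairpins than with shNC, for both hairpins and all 3 constructs, and 4 of these 6 differences passed. The largest was shMyh9#2 in WT cells, at 154 and 149 CPM against 48.3 and 61.5 CPM with shNC (log2 fold change 1.46, SE 0.15, adjusted p = 7.56e-06). It was 1 of 4 genes there, against 4.76% of all genes, and it passed without any 1 of the 4 libraries. shMyh9#4 in dHLH cells gave 163 and 189 CPM against 91.3 and 102 CPM (log2 fold change 0.89, SE 0.14, adjusted p = 0.0013). This was again 1 of 4 genes, against 15.1% of all genes, and passed without any 1 library.

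The remaining Serpine2 differences were smaller. With shMyh9#4 in WT cells the libraries held 104 and 82.1 CPM (log2 fold change 0.75, SE 0.15, adjusted p = 0.043), 1 of 4 genes against 0.236% of all genes. With shMyh9#2 in EV cells they held 62.3 and 58.6 CPM against 37.9 and 45.3 CPM (log2 fold change 0.54, SE 0.15, adjusted p = 0.039), 1 of 4 against 6.65%. The latter call was lost without any 1 of its 4 libraries (adjusted p from 0.083 to 0.31), and that of shMyh9#4 in WT cells without either shNC library or shMyh9#4 replicate 1 (adjusted p from 0.080 to 0.30). shMyh9#4 in EV cells (log2 fold change 0.41, 95% interval 0.11 to 0.70, adjusted p = 0.29) and shMyh9#2 in dHLH cells (0.44, 95% interval 0.16 to 0.72, adjusted p = 0.24) missed the threshold, and no other member was called there, against 1.71% and 0.559% of all genes. Each of these 2 had 1 member with an unadjusted p under 0.05, which was Serpine2. All comparisons of one construct share their shNC libraries. In EV cells the log2 fold change of Myh9 itself was -1.51 with shMyh9#2 and -0.52 with shMyh9#4. It was -2.04 and -0.93 in WT cells, and -1.69 and -0.42 in dHLH cells. In dHLH cells shMyh9#4 thus had the smaller Myh9 change and the larger Serpine2 change (0.89 against 0.44). The part of Myh9 loss in the Serpine2 values was not tested.

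Markers of other cell types moved with the hairpins as well. With shMyh9#2 in WT cells the 5 fibroblast genes summed to 116 to 125 CPM against 57.8 to 58.4 CPM with shNC, mostly Col1a1. Of these genes, Pdgfrb had a lower mean, at 2.27 CPM against 5.39 CPM. Of the melanocyte genes, Sox10 had a mean of 35.9 CPM against 99.3 CPM, and Mitf 21.2 CPM against 19.9 CPM. With shMyh9#2 in EV cells the fibroblast sum was 23.7 to 31.9 CPM against 8.86 to 9.99 CPM. Pdgfra had a mean of 4.68 CPM against 5.42 CPM, and Pdgfrb 1.97 CPM against 1.96 CPM. The 3 endothelial genes summed to 16.7 to 18.5 CPM against 7.96 to 10.1 CPM. Of these, Cdh5 had a mean of 10.1 CPM against 2.85 CPM, while Kdr had no count with shMyh9#2 and was detected with shNC. With shMyh9#2 in WT cells the endothelial sum was 22.7 to 26.4 CPM against 20.9 to 21.5 CPM. With shMyh9#4 in dHLH cells the fibroblast sum was 215 to 217 CPM against 193 to 214 CPM, while Pdgfrb had a mean of 4.62 CPM against 11.1 CPM. Sox10 had a mean of 45.2 CPM against 24.4 CPM, and Mitf 25.4 CPM against 18.1 CPM. The part of these shifts in the Serpine2 values was not tested.

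**Figure D4:**
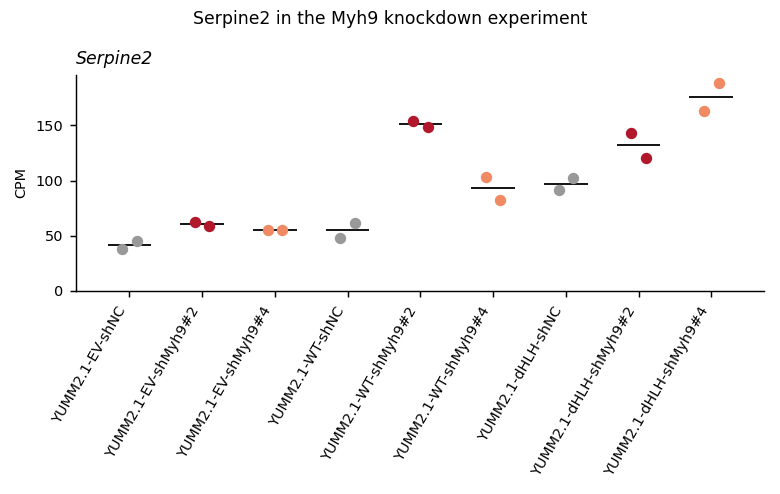
Serpine2 level (y axis, CPM) in the 9 groups of the Myh9 knockdown experiment (x axis), with 1 point per library and a bar at the mean; grey is shNC, dark red shMyh9#2 and light red shMyh9#4. Every hairpin group lies above the shNC group of its construct, and in WT cells shMyh9#2 reaches 154 and 149 CPM.

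The effect of shMyh9#2 on Serpine2 was larger with WT than with EV. The difference of the 2 effects was 0.91 on the log2 scale (SE 0.21, adjusted p = 0.017), the 1 of 4 genes that passed, where 5.18% of all genes did. It missed the threshold without YUMM2.1-EV-shNC replicate 2, YUMM2.1-EV-shMyh9#2 replicate 2, YUMM2.1-WT-shNC replicate 1 or YUMM2.1-WT-shMyh9#2 replicate 1, with values from 0.75 to 0.91 and adjusted p from 0.054 to 0.083. Between dHLH and EV the same difference was -0.10 (95% interval -0.51 to 0.31, adjusted p = 0.87), and between the 2 hairpins in EV cells it was 0.13 (95% interval -0.16 to 0.43, adjusted p = 0.73). In both of these tests none of the 4 genes passed, against 3.29% and 0.492% of all genes, and none had an unadjusted p under 0.05. Plau is counted among the 4 in these 3 tests, but in EV cells it held 1 count with shNC and 2 counts with shMyh9#2 over both libraries, too few to pass. The hairpin shMyh9#2 also lowered Myh9 itself more with WT than with EV. For Myh9 the difference of these 2 effects was -0.52 (SE 0.13, edgeR adjusted p = 0.030). Its part in the Serpine2 difference was not tested.

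The activators and the receptor were not called in any of the 6 knockdown comparisons. Plat with shMyh9#2 in EV cells was 2.50 and 3.12 CPM, below 9.62 and 8.19 CPM with shNC, at an adjusted p of 0.079 (log2 fold change -1.65, SE 0.54). Plau with shMyh9#2 in WT cells held 53 and 26 counts against 2 and 10 (log2 fold change 1.80, SE 0.80, adjusted p = 0.23), a value that was 1.14 without YUMM2.1-WT-shNC replicate 1 and 3.21 without YUMM2.1-WT-shNC replicate 2. Plaur differed by between -0.10 and 0.53 in the 6 comparisons. Over the 18 comparisons within experiments, Plat passed as lower in 4 and higher in 0, Serpine2 as higher in 8 and lower in 0, Plaur as lower in 1 and Plau as higher in 2. The direction follows the order in which the groups of each comparison are named. Serpine2 thus counts as higher both for WT against dHLH in the clone and for dHLH against WT with shNC, which are opposite orders of the constructs. Plat and Plaur were tested in all 18, Serpine2 in 15 and Plau in 10. Several of these comparisons share libraries, so these counts are not independent.

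The plasminogen system around the 4 genes was read from a list of 31 genes with the 4 included. Plasminogen itself (Plg), factor XII (F12), protein C inhibitor (Serpina5) and the fibrinolysis inhibitor Cpb2 had 0 counts in all 40 libraries. In aC3 cells 3 of 14 tested list genes rose with WT and 1 fell, the risers being Serpine2, Vldlr, an endocytic receptor of protease-serpin complexes (0.48, SE 0.09), and Serpinb8, an intracellular serpin (0.45, SE 0.12). Of all genes, 4.92% rose and 6.28% fell, and the list's median log2 fold change was 0.03 against 0.01 for all genes. With dHLH, Plat and the plasminogen receptor Plgrkt (-0.67, SE 0.18) fell and none of 14 rose, where 4.79% of all genes rose and 6.09% fell.

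In YUMM2.1 cells with dHLH, 6 of 14 tested list genes rose against EV and 1 fell, where 6.51% of all genes rose and 6.72% fell. Against WT 6 also rose and 1 fell, where 6.44% of all genes rose and 6.60% fell, and both comparisons use the same dHLH libraries. With the labels exchanged 8 rose and 2 fell against EV (15.2% and 13.5% of all genes), and 8 rose and 1 fell against WT (9.36% and 9.53%). As labelled, against EV the list's median log2 fold change was 0.71 and that of all genes -0.01. The endocytic receptor Lrp1, which clears protease-serpin complexes, rose by 1.39 (SE 0.20), and the serpin Serpinb6a by 1.40 (SE 0.14). The plasminogen docking partners Anxa2 (0.98, SE 0.21) and S100a10 (0.75, SE 0.15), with Vldlr (0.68, SE 0.17) and the thrombin receptor F2r (1.59, SE 0.41), completed the rise, while Serpinb8 fell by 1.11.

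With the control hairpin, 4 of 16 tested list genes rose and 2 fell with WT, and 6 rose and 1 fell with dHLH. Of all genes, 11.7% rose and 10.6% fell with WT, and 13.9% rose and 12.5% fell with dHLH. The list's medians were 0.31 and 0.67 against 0.02 for all genes in both. Lrp1, Vldlr, Serpinb6a and Anxa2 rose with both constructs, by between 0.47 and 1.32.

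Under Myh9 knockdown, the endocytic receptor Lrp1 rose in EV cells with shMyh9#2 (0.92, SE 0.11) and shMyh9#4 (0.61, SE 0.11) and was not called in WT or dHLH cells. In EV cells 3 of 16 tested list genes rose with shMyh9#2 and none fell, where 4.2% of all genes rose and 2.46% fell, and with shMyh9#4 Lrp1 was the 1 called, where 1.45% rose. In WT cells with shMyh9#2, Serpinb6a (-0.51, SE 0.10) and Vldlr (-0.44, SE 0.12) fell and Serpine2 rose, where 2.35% of all genes rose and 2.41% fell. In dHLH cells with shMyh9#4, 2 of 16 tested genes rose and 3 fell, the falls being F2r, S100a10 and Serpinb6a and the rises Serpine2 and Anxa2, where 6.28% of all genes rose and 8.86% fell.

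The list was also read between lines. Of 18 tested genes, 8 were higher in YUMM1.7-EV than in YUMM2.1-EV and 3 lower, where 15.3% of all genes were higher and 16.5% lower. The counts were 9 higher and 3 lower with the labels exchanged. As labelled, the list's median was 0.305 and that of all genes 0. Mrc2, the collagen receptor that associates with uPAR, had a mean of 24.3 CPM against 0.0539 CPM. Thrombomodulin (Thbd) had a mean of 16.6 CPM in YUMM1.7-EV and no count in YUMM2.1-EV or B16-Ctrl. Tissue factor pathway inhibitor (Tfpi) had means of 55.8 CPM in B16-Ctrl, 17.3 CPM in YUMM1.7-EV and 0.544 CPM in YUMM2.1-EV. Of 18 tested genes, 11 were lower in B16-Ctrl than in YUMM2.1-EV and 2, Eno1 and Tfpi, were higher, where 25.6% of all genes were lower and 21.2% higher. Anxa2 and S100a10 were lower there, with log2 fold changes of -2.90 and -3.0.

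**Figure D5:**
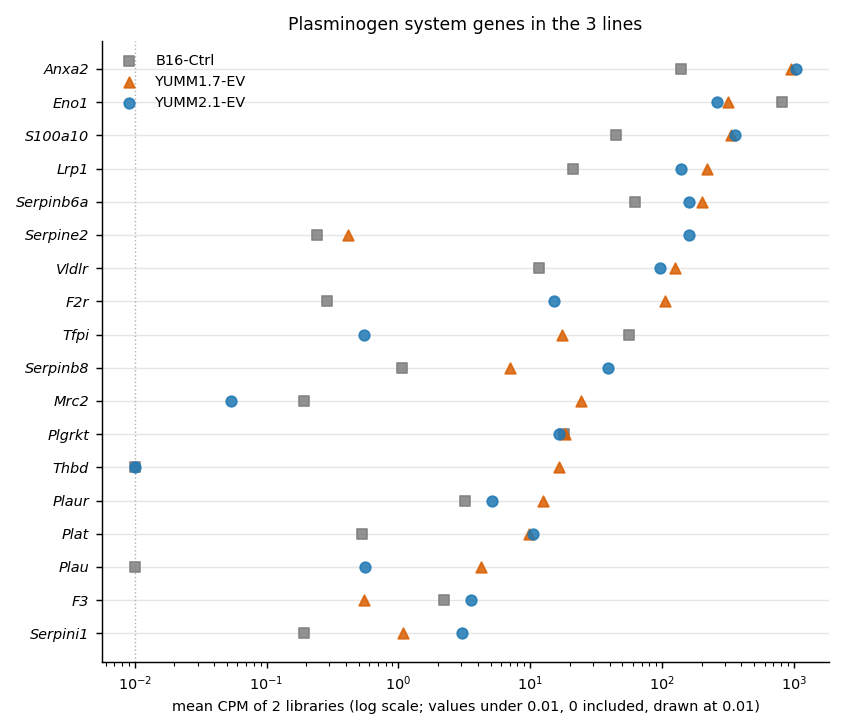
Mean CPM of 2 libraries (x axis, log scale, values under 0.01 drawn at 0.01) of the list genes that reached 1 CPM in at least 1 of B16-Ctrl, YUMM1.7-EV and YUMM2.1-EV (y axis), to be compared within a row. Serpine2 stands at 161 CPM in YUMM2.1-EV and below 0.5 CPM in the other 2, and Plau, Plaur and Mrc2 are highest in YUMM1.7-EV.

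The genes most like each member were sought by Pearson correlation of log2 CPM over the 20 group means, among genes with a mean of at least 10 CPM. Groups share lines, so these values carry line differences and are given as a description. Plau was most like Vcan (r = 0.943), Ly6e (r = 0.941) and Acta2 (r = 0.939). Plat was most like Hmgn3 (r = 0.895), Dusp7 (r = 0.894) and Sh3pxd2a (r = 0.882). Plaur was most like Ube2d2a (r = 0.894), Rrp9 (r = 0.877) and Ctps (r = 0.863), and Serpine2 like Neurl1b (r = 0.987), 4930526A20Rik (r = 0.983) and Htra3 (r = 0.978). Within the 12 YUMM2.1 groups without the clone, the r of Serpine2 was 0.794 with Neurl1b, 0.518 with 4930526A20Rik and 0.543 with Htra3. For the genes named with Plau it was there 0.885, 0.879 and 0.834, in the same order. For those named with Plat it was 0.922, 0.780 and 0.761, and for those named with Plaur 0.781, 0.688 and 0.689. Among the members themselves the correlation over 20 groups was 0.616 for Plau and Plaur, and over those 12 groups -0.551 for Plau and Plat and 0.528 for Plau and Serpine2.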

How the data were processed

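The libraries were made with the QuantSeq FWD kit from DNase-treated RNA of cultured cells. The authors mapped reads to mm10 with bowtie2, quantified them with RSEM on Ensembl transcripts, deposited 1 table of whole-number counts per gene (40 libraries, 51789 Ensembl genes) and tested it with DESeq2. Whether counting used strand is not given in the sources used here. Because reads come from the 3′ end, counts are not divided by transcript length, and levels are compared between groups, not between genes.

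Symbols were added by Ensembl identifier (99.63% matched). From the deposited counts, each experiment (B16, YUMM2.1, YUMM2.1KO, YUMM1.7 and the 9 Myh9 knockdown groups) was fitted with edgeR 4.0.16 in R 4.3.3, using TMM factors, filterByExpr and glmQLFTest without replicate numbers. Lines, and the differences of the dHLH effect between backgrounds, came from 1 fit of all 40 libraries. SE is the size of the log2 fold change over the square root of F. Intervals are at 95%, and count ratios and bounds cover counting error only, a bound being taken at 3 counts over a group at 0. Alternatives were DESeq2 1.42.0, its size factors in edgeR, no filter, a mean of at least 10 counts, 1 fit of all libraries, the replicate block, each library left out, and the 2 doubtful labels exchanged. The fits were tested on simulated data for 6 comparisons. The members, the list of 31 genes and the markers were chosen with earlier results of these data known. All 4 members are reported, with the list genes that passed, and for likeness the 3 highest Pearson correlations. An item of the list as first written, and an allele of the YUMM lines, are not reported here, and list counts and medians are computed without that item.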

Additional observations from a re-analysis of the deposited data

Results flagged for a closer look

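With dHLH against EV, the log2 fold change of Plaur was 0.98 in YUMM2.1 cells as labelled (edgeR adjusted p = 0.14). It was 0.001 in the separate experiment in YUMM2.1 cells with shNC, which was not tested against the clone. The effect of dHLH on Plaur differed between the Bmal1-null clone and YUMM2.1 cells without a hairpin when the difference itself was tested, at -1.96 on the log2 scale (edgeR adjusted p = 0.0032). Over the alternatives its adjusted p ran from 4.6e-05 to 0.043.

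The effect of shMyh9#2 on Serpine2 differed between WT and EV cells, at 0.91 on the log2 scale (edgeR adjusted p = 0.017). Over the alternatives the value ran from 0.75 to 1.12 and the adjusted p from 0.00023 to 0.083. The same difference for Myh9 itself was -0.52 (SE 0.13, edgeR adjusted p = 0.030), and its part was not tested.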

How the results depend on the processing

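Depth limits Plau most, with under 10 counts in many YUMM2.1 and B16 libraries, and 2 libraries per group leave each call open to 1 library. The labels give the replicate numbers no meaning. The correlation of same-numbered deviations was 0.087 in B16, 0.027 in YUMM2.1KO, 0.0054 in YUMM1.7, -0.0042 in the knockdown experiment and 0.24 (0.13 to 0.30) in YUMM2.1, where all 3 pairs of groups passed 0.1 as labelled; with the labels exchanged it was 0.0044 (-0.10 to 0.13). Among values of single genes under the alternatives, 868 kept direction and side of the threshold, 47 lost the call, 20 gained one and 63 changed sign, where the cause was not tested. DESeq2 gave no adjusted p for Plau with dHLH in YUMM1.7.

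One fit of all 40 libraries called 0 members in the 3 YUMM2.1KO comparisons, for dHLH in YUMM1.7, for shMyh9#2 in EV cells and for shMyh9#4 in WT cells, and 1 and 2 for YUMM2.1-dHLH against EV and WT. Without the count filter the calls were 2 for YUMM2.1KO-dHLH against EV, 1 and 2 for YUMM2.1-dHLH against EV and WT, 2 for shMyh9#2 in EV cells and 1 for YUMM2.1KO-EV against YUMM2.1-EV. With the replicate block they were 1 for YUMM2.1-dHLH against EV (Plaur 1.00, where 27.1% of all genes were called) and 1 against WT (Plaur 1.33, where 26% were). They were 0 for shMyh9#4 in WT cells and 1 for WT against EV with shNC, and the block changed the sign of Plat in B16 (-0.30). DESeq2 called 1 for YUMM2.1-dHLH against WT and 1 for WT against EV with shNC. DESeq2 also called 0 of the 4 in B16, in WT against EV of YUMM2.1 and YUMM1.7, for shMyh9#4 in EV cells and for shMyh9#2 in dHLH cells. With the labels exchanged, 28.7% of all genes were called for YUMM2.1-dHLH against EV and 3.74% for YUMM2.1KO-EV against YUMM2.1-EV. For the dHLH effect in YUMM1.7 less that in YUMM2.1 it was 13.3%. The share of all genes moved with the setting, so these counts alone do not separate the members from a general change in calls. Exchanging the labels gave 1 call each for YUMM2.1-dHLH against EV, YUMM2.1KO-EV against YUMM2.1-EV and the dHLH effect in YUMM1.7 less that in YUMM2.1, and leaving out both libraries, chosen after seeing the data, gave 1 for YUMM2.1-dHLH against EV.

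Leaving out 1 library gave 1 to 2 calls for YUMM2.1KO-WT against EV, 0 to 3 for WT and 1 to 2 for dHLH against EV with shNC, and 0 for shMyh9#2 in EV cells. It gave 0 to 1 for YUMM2.1KO-dHLH against EV, YUMM2.1KO-WT against dHLH, YUMM2.1-dHLH against WT, YUMM1.7-dHLH against EV, shMyh9#4 in WT cells, dHLH against WT with shNC and the shMyh9#2 effect in WT less EV. The percent of all genes called moved by over 1.5 times in several, from 11.2% to between 2.35% and 14.4% for YUMM2.1KO-WT against EV, from 15.1% to between 1.24% and 17.7% for shMyh9#4 in dHLH cells, from 13.2% to between 4.35% and 28.7% for YUMM2.1-dHLH against EV, and from 0.440% to between 0.261% and 43.4% in B16.

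Signs that changed belonged to values that were not called. With the labels exchanged Plaur in YUMM2.1-WT against EV was 0.74 (0.41 without both libraries), Plat in YUMM2.1-dHLH against WT 0.22 and the Plat difference of the dHLH effect in YUMM2.1KO less YUMM2.1 0.11. Plau in YUMM1.7-WT was -0.0045 in the fit of all libraries. Plaur in dHLH against EV with shNC was -0.016 by DESeq2, -0.011 with its size factors, -0.0084 with no filter, -0.021 with a mean of 10 counts, -0.0051 with the block and -0.0077 in the fit of all libraries. The Plaur difference of the shMyh9#2 effect in dHLH less EV was 0.020 by DESeq2, 0.0067 with its size factors, 0.023 with a mean of 10 counts and 0.0024 in the fit of all libraries.

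With 1 library left out, Plat ran from -2.40 to 1.05 in B16, from -1.11 to 0.90, -1.44 to 0.63 and -0.99 to 0.20 in YUMM2.1 (WT against EV, dHLH against EV, dHLH against WT), from -0.65 to 0.53 for shMyh9#4 in WT cells, from -0.78 to 1.23 between YUMM1.7-EV and YUMM2.1-EV, from -1.49 to 0.57 and -0.98 to 1.08 for the dHLH effect in YUMM2.1KO and YUMM1.7 less YUMM2.1, from -0.098 to 1.49 for the shMyh9#2 effect in dHLH less EV, and from -1.45 to 0.19 between hairpins. Plaur ran from -0.42 to 0.42 for YUMM2.1KO-WT against dHLH, -0.89 to 0.13 for YUMM2.1-WT against EV, -0.35 to 0.23 for dHLH against EV with shNC, -0.059 to 0.25 and -0.27 to 0.46 for shMyh9#2 in EV and dHLH cells, -0.13 to 0.078 and -0.35 to 0.25 for shMyh9#4 in WT and dHLH cells, -0.38 to 0.37 for the shMyh9#2 effect in dHLH less EV and -0.25 to 0.062 between hairpins. Plau ran from -0.12 to 0.14 for YUMM1.7-WT, -0.24 to 1.83 and -0.58 to 0.14 for shMyh9#4 in WT and dHLH cells, and -0.85 to 1.05 for the dHLH effect in YUMM1.7 less YUMM2.1. Serpine2 ran from -0.051 to 0.096 for YUMM2.1KO-dHLH against EV, -0.20 to 0.31 for YUMM2.1-WT against EV, -0.47 to 0.028 and -1.36 to 0.33 for the dHLH effect in YUMM2.1KO and YUMM1.7 less YUMM2.1, and -0.23 to 0.042 for the shMyh9#2 effect in dHLH less EV.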
